A study of Mus musculus with 74 samples.

Results

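The genes described here are 49 of the 24851 genes measured in 3 mouse macrophage-like cell lines, chosen by their unstimulated RNA levels: cells of the edited line 3205 differed strongly from parental RAW264.7 cells at 0 min while cells of the edited line 264 did not. RAW264.7 is a macrophage-like line made from a mouse tumour induced by Abelson leukaemia virus. A gene was taken when the ratio of line 3205 to RAW264.7 at 0 min, formed from the means of 2 libraries plus 1, was at least 6 or at most its inverse, when the same ratio of line 264 to RAW264.7 lay between 0.5 and 2, and when the higher of the line 3205 and RAW264.7 means was at least 100 normalized reads. Of 368 genes past the fold and the level, 56 had the line 264 ratio in range, and 7 of these were left out by name, which left 28 rising and 21 falling genes. The level was reached by 10798 genes in all.

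The study concerned histone H3.3 and its phosphorylation during stimulation with lipopolysaccharide (LPS), a bacterial cell wall component sensed by macrophages. RNA was sequenced from RAW264.7, line 264 and line 3205 without stimulation and after 60 and 120 min of LPS, with 2 libraries in each of the 9 groups. The study describes a hypomorphic line and H3f3a/H3f3b double knockout lines made by CRISPR, but the labels do not say which of these the numbers 264 and 3205 stand for. Values were present for 30 of the 74 samples of the series: these 18 RNA libraries and ChIP libraries of primary macrophages. Whether each edited line grew from 1 clone, and the LPS dose of the lines, are stated neither in the labels nor in the design text. The edit and the line it was made in therefore cannot be told apart. The labels do not say that the 2 libraries of a group came from separate cultures, so p-values measure the spread between these libraries.

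Values are read counts divided by a size factor for each library, called normalized reads below, from libraries of 13.1 M to 53.9 M reads. H3f3a, one of the genes for H3.3, had 2055 to 3109 normalized reads in the 6 RAW264.7 libraries, 172 to 236 in line 264, and from 37.5 to 76.2 in line 3205. H3f3b, the other H3.3 gene, had 13623 to 34155, 5642 to 17765 and 7177 to 13284. The H3f3a ranges of both edited lines lay below that of RAW264.7, and the H3f3b range of line 264 overlapped it. RNA level does not show whether protein is made. The summed level of 19 macrophage identity genes was 424155 to 556955 normalized reads in RAW264.7, 169628 to 265219 in line 264 and 238423 to 313051 in line 3205. All 19 had reads in each line. The 5 epithelial markers summed to at most 2.73 in any library, and the 6 fibroblast markers to at most 72.9. The 9 B cell markers summed to 1032 to 1471 in RAW264.7, 720.2 to 1094 in line 264 and 1926 to 2881 in line 3205. Most of these sums was 1 gene, Blnk, with means of 1326, 1019 and 2654 at 60 min in the same order. Of the 9, 1, 1 and 2 reached a mean of 50, and Pax5 had no read in RAW264.7 or line 264. The 13 neutrophil markers summed to 281 to 322, 1968 to 2778 and 2195 to 2829. Csf3r, the receptor for granulocyte colony-stimulating factor, had means of 177, 2043 and 2123 at 60 min, and 2 of the 13 reached a mean of 50 in each line. Mpo, Ctsg, Ltf, Ngp, S100a9 and Ly6g had no read in RAW264.7, and Ngp and S100a9 none in line 3205. The 6 endothelial markers summed to 17.7 to 26.1 in RAW264.7, 48.1 to 106 in line 264 and 103 to 227 in line 3205. Among them Pecam1 was higher in line 3205 than in RAW264.7 by 5.23 ± 0.62 at 60 min, and Emcn had no read in either line. The part of these markers in the results below was not tested. In such bulk samples, fewer cells of a type and less RNA per cell cannot be told apart.

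H3.3 is the form of histone H3 that is placed into chromatin outside DNA replication, at active genes, enhancers and some silent repeats. No pathway test was made of the genes chosen here. The falling genes include a Polycomb subunit, an AP-1 factor, fucosyltransferases and adhesion molecules. The rising genes include immune receptors, secreted proteins, the inflammatory enzyme cyclooxygenase-2 and several genes known from neurons. Groups by role were made after the names were known.

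The start site regions of 4 members are shown as examples, with their CG dinucleotides, which are dense in CpG island promoters. Each is the 250 bases before a RefSeq start on the strand of the gene, build GRCm38.p6, with CG in capitals. Enpp4 and Guca2a had the largest limma differences at 60 min in each direction on the log2(value + 1) scale, Ttc3 overlaps another falling gene, and Ptgs2 was the member with the most reads.
Enpp4 (chr17:44105810-44106059, minus strand): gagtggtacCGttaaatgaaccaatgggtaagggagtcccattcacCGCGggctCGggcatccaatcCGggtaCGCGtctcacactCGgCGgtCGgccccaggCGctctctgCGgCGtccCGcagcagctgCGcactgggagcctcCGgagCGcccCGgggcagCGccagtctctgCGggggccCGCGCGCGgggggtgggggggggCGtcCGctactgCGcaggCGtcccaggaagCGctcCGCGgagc
Ttc3 (chr16:94370489-94370738, plus strand): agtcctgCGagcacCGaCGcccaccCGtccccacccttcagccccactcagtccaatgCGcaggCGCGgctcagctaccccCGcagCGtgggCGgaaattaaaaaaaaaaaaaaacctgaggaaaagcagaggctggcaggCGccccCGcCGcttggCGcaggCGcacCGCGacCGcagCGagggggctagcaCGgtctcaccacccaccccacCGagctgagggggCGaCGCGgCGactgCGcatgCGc
Guca2a (chr4:119637482-119637731, plus strand): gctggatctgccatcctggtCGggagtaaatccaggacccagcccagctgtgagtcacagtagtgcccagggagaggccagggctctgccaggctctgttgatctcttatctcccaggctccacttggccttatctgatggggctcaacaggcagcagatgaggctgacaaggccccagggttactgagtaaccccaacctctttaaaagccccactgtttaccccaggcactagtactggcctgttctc
Ptgs2 (chr1:150099781-150100030, plus strand): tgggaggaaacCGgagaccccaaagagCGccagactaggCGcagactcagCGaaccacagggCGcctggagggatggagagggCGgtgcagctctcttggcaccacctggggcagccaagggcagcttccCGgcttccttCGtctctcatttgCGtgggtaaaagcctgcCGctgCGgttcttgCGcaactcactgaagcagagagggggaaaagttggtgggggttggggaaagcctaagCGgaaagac

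These stretches held 31 CG in Enpp4, 27 in Ttc3, 13 in Ptgs2 and 1 in Guca2a. The start of Ttc3 lies within Pigp, which reads on the opposite strand.

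**Figure D1:**
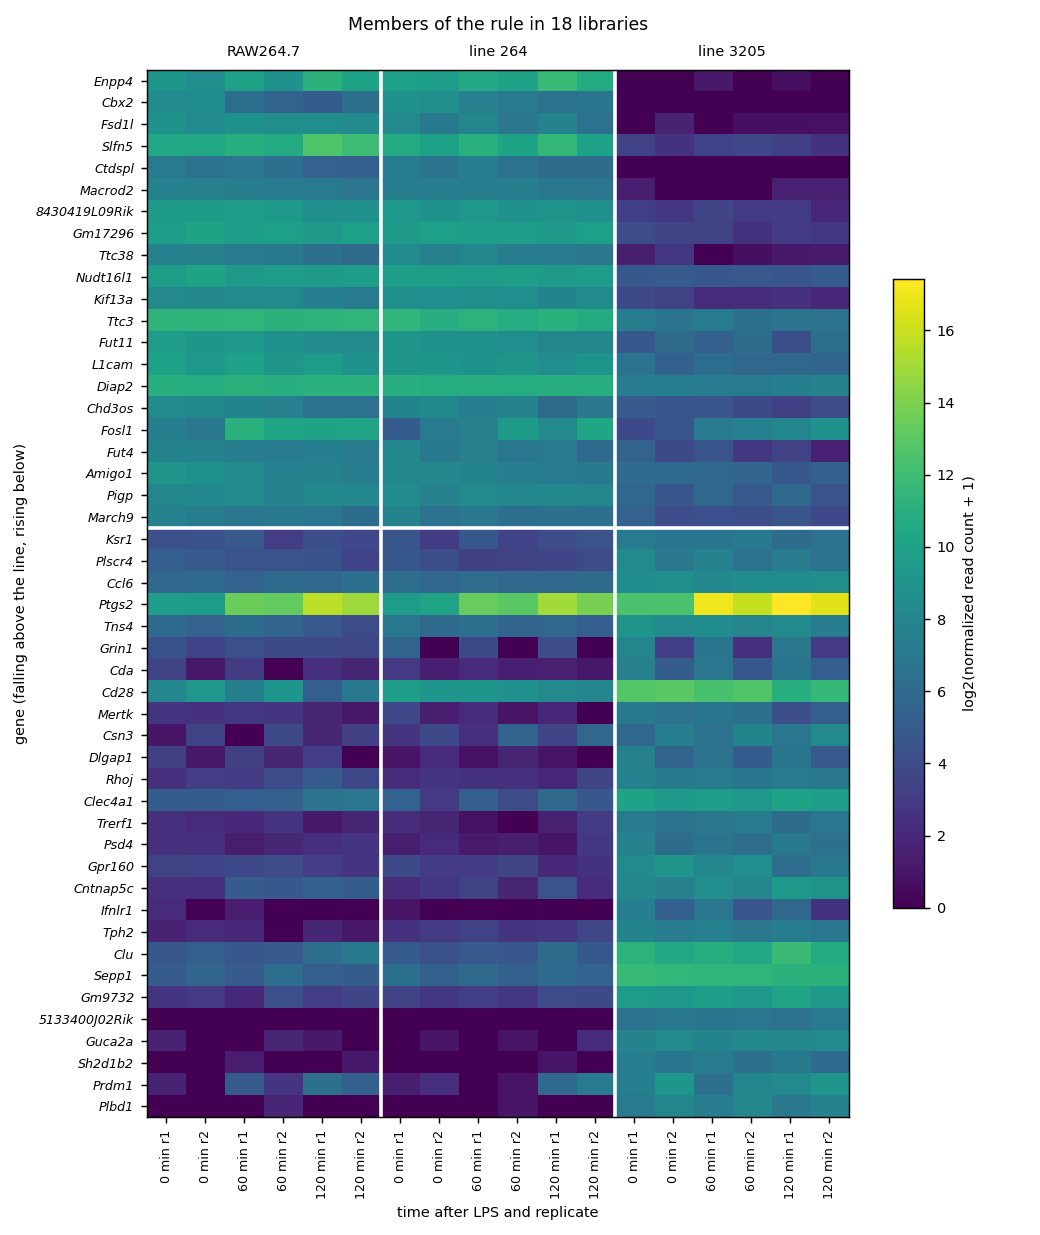
Heat map of log2(normalized reads + 1) for the 21 falling genes (above the white line) and 27 of the 28 rising genes (below it) in the 18 libraries, ordered by line, time after LPS and replicate (r1, r2). At all 3 times the line 3205 columns are darker than those of RAW264.7 for falling genes and lighter for most rising genes. The RAW264.7 and line 264 columns have a similar shade for most genes.

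The values at 0 min chose the genes and are given as a description. Enpp4, an ectonucleotide pyrophosphatase of the cell surface, had 582 and 372 normalized reads in RAW264.7, 903 and 857 in line 264, and none in either line 3205 library. Cbx2, a chromodomain subunit of Polycomb repressive complex 1, had 332 and 351, then 478 and 392, and again none in line 3205. Ctdspl, a phosphatase, had 143 and 89.2 in RAW264.7 and none in line 3205. Among rising genes, 5133400J02Rik, a non-coding RNA, had no read in any RAW264.7 or line 264 library and 90.7 and 122 normalized reads in line 3205. Plbd1, a phospholipase B-like protein, had none in RAW264.7 and line 264 and 154 and 251 in line 3205. At the edge of the rule, the ratio of line 3205 to RAW264.7 was 6.09 for Ksr1, 6.27 for Plscr4 and 6.44 for Ccl6, just inside, and 5.95 for Tsku, 5.63 for H2-DMb2 and 5.63 for Map3k13, just outside. On the falling side the inverse ratio was 6.16 for March9, 6.68 for Pigp and 7.12 for Amigo1 inside, and 5.74 for Hs3st3b1, 5.63 for Gpr84 and 5.25 for H2afx outside. The line 264 ratio was 1.94 for Prdm1, 1.84 for Enpp4 and 1.75 for Tph2 just inside the upper bound and 2.0 for Gm6526, 2.01 for Tnfrsf26 and 2.04 for Layn outside. At the lower bound it was 0.507 for Fsd1l, 0.533 for Dlgap1 and 0.553 for Amigo1 inside, and 0.490 for Ccdc120, 0.476 for Cxcl2 and 0.454 for Ighm outside. The higher mean was 106 for 5133400J02Rik, 112 for Mertk and 113 for Ifnlr1 just inside, and 96.2 for Angptl2, 92.0 for Cd79b and 90.6 for Glt1d1 outside.

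The 60 and 120 min libraries did not enter the rule, and they were used to ask whether the same genes differed in cells under LPS. They came from the same lines, so genes chosen for a large 0 min difference were likely to differ again. The spread in each limma fit was also estimated in part from the 0 min libraries. The counts below are therefore no independent support for the choice, and the shares over all genes are background. After 60 min, 21 of 21 falling genes were lower in line 3205 than in RAW264.7 and 26 of 28 rising genes were higher, at a limma adjusted p below 0.05 over 17301 genes. Over all genes tested, 6.46% were called lower and 8.95% higher. The median log2 difference was -4.70 over the falling genes and 4.29 over the rising genes, against 0.02 over all genes. After 120 min, 20 of 21 falling and 27 of 28 rising genes were called in the same directions, with medians of -4.83 and 4.23, where 5.99% and 7.94% of 17450 genes were called. All 49 genes passed the filter on low values at both times. The libraries of line 3205 lay wholly below those of RAW264.7 for 21 of 21 falling genes and wholly above them for 27 of 28 rising genes at each time, where 27.8% and 30.4% of all genes at 60 min, and 26.0% and 27.4% at 120 min, were separated in these directions. Leaving out 1 library of a comparison left 20 to 21 falling and 19 to 25 rising calls at 60 min, and 18 to 20 falling and 18 to 21 rising calls at 120 min. The genes that lost a call without 1 library were Fosl1, Ksr1, Plscr4, Tns4, Cda, Csn3, Ifnlr1 and Prdm1 at 60 min, and Fut11, March9, Ksr1, Ptgs2, Cda, Mertk, Csn3, Dlgap1, Rhoj, Clec4a1, Ifnlr1 and Prdm1 at 120 min. In the authors' deposited table, 19 rising genes were higher and 21 falling genes lower in line 3205 at 60 min at an adjusted p below 0.05, and 19 and 19 at 120 min. The share of all genes called in that table is not given here, and the limma shares are no background for it.

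**Figure D2:**
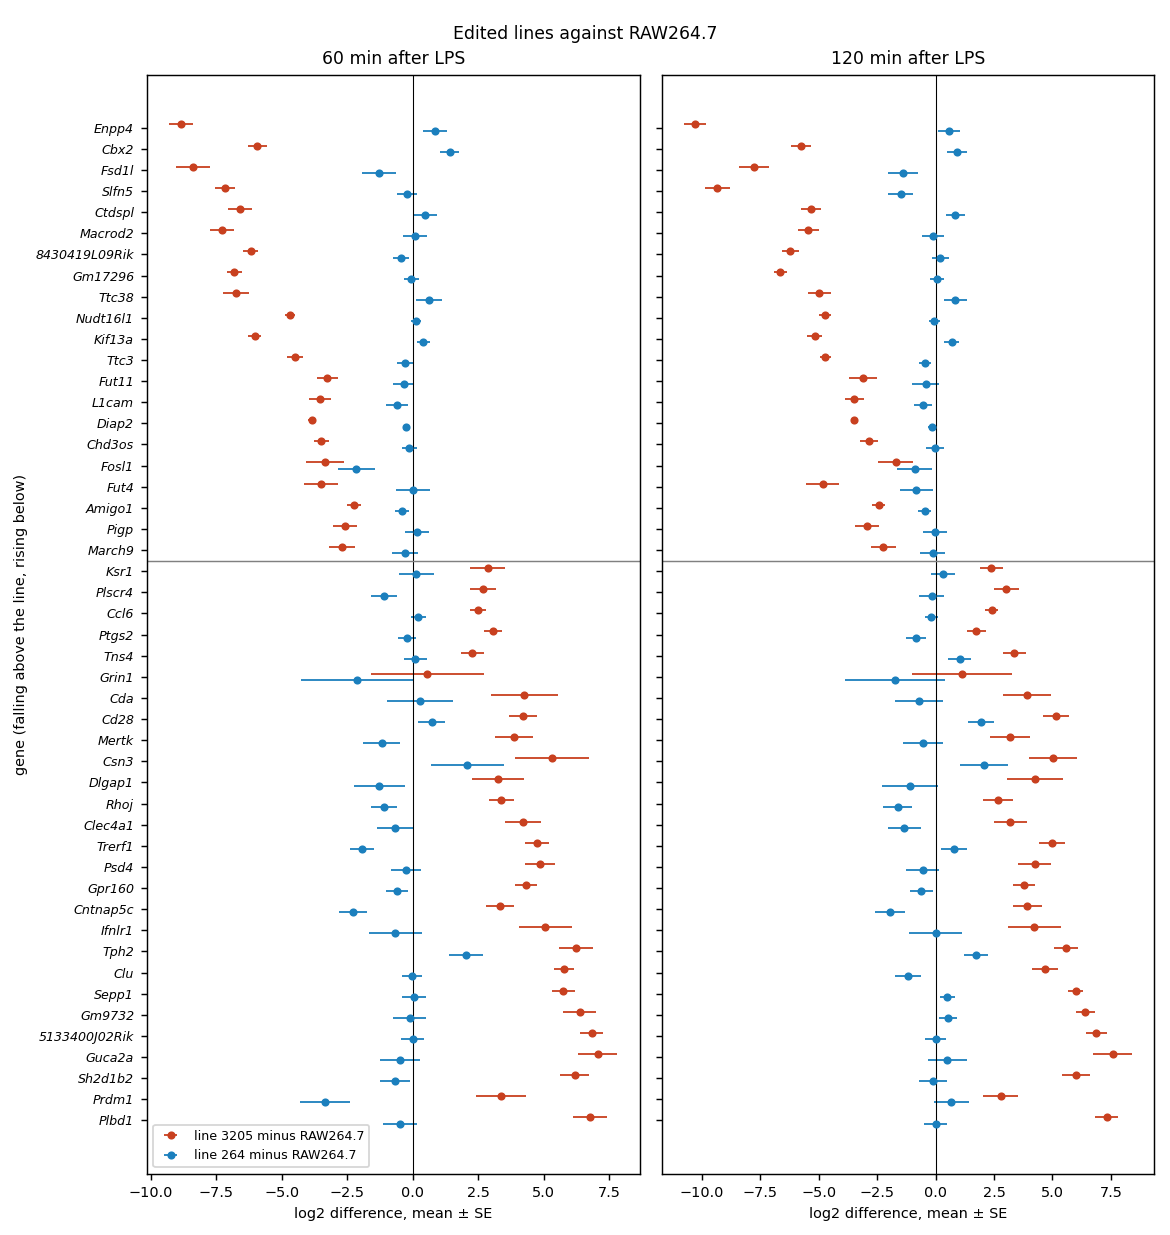
Log2 difference from RAW264.7 (mean ± SE from the limma fit, groups of 2 libraries) for the 21 falling and 27 of the 28 rising genes at 60 min (left) and 120 min (right), in line 3205 (red) and line 264 (blue). Red points lie left of 0 for all 21 falling genes and right of 0 for the 27 rising genes drawn, and Grin1 has the widest error.

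Among the falling genes, the chromatin and transcription regulators were Cbx2 and Fosl1. Cbx2 had 77.2 and 47.5 normalized reads in RAW264.7 at 60 min, 189 and 140.0 in line 264 and none in line 3205. With 0 reads in line 3205 against 70 in RAW264.7, Cbx2 was at least 64.8-fold lower at 60 min and at least 58.1-fold lower at 120 min, from a floor of 3 reads over the group. Cbx2 had no read in any of the 6 line 3205 libraries. Fosl1, which encodes the AP-1 subunit Fra-1, had 2191 and 1233 normalized reads in RAW264.7 at 60 min, then 188 and 723 in line 264, against 138 and 188 in line 3205. Its log2 difference between line 3205 and RAW264.7 was -3.35 ± 0.72 (SE, limma adjusted p = 0.012) at 60 min and -1.71 ± 0.74 at 120 min, where the adjusted p of 0.17 missed the threshold. With the replicate number as a block that adjusted p was 0.036. Without replicate 1 of either group the 60 min adjusted p rose to 0.093 (RAW264.7) and 0.076 (line 3205). The log2 difference between line 3205 and line 264 was -1.20 ± 0.72 at 60 min and -0.82 ± 0.74 at 120 min, and neither passed the test.

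Slfn5, a member of the Schlafen family that is induced by type I interferon, had 1967 and 1616 normalized reads in RAW264.7 at 60 min and 10.6 and 12.5 in line 3205, a 155-fold lower mean. At 120 min it had 6329 and 3873 in RAW264.7, then 3155 and 982 in line 264, against 9.03 and 4.86 in line 3205. The line 3205 libraries stayed near the same low level at all 3 times.

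The surface and glycosylation genes that fell were Enpp4, L1cam, Amigo1, Fut4, Fut11 and Pigp. Enpp4 had 984 and 491 normalized reads in RAW264.7 at 60 min, then 1482 and 1067 in line 264, against 1.32 and 0 in line 3205. Those values came from 849 reads against 2, a 1257-fold difference with a 95% counting interval of 347 to 10396. L1cam, a neural and leukocyte adhesion molecule, was lower by a log2 difference of -3.53 ± 0.42 (limma adjusted p = 4.3e-04) at 60 min. Amigo1, a leucine-rich repeat adhesion protein, differed by -2.24 ± 0.27 (limma adjusted p = 4.9e-04), the smallest difference of the falling genes at that time. Fut4 and Fut11 encode fucosyltransferases, and Fut4 takes part in making Lewis x type glycans. Fut4 had 162 and 135 normalized reads in RAW264.7 and 22.5 and 6.23 in line 3205 at 60 min. Fut11 had 621 and 430.4 in RAW264.7 and 39.0 and 71.7 in line 3205. All 6 were called lower at both times.

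Pigp, part of the enzyme that starts GPI anchor synthesis, and Ttc3, a ubiquitin ligase, overlap on chromosome 16 on opposite strands. Ttc3 had 2679 and 2397 normalized reads in RAW264.7 at 60 min, then 2435 and 1761 in line 264, against 144 and 85.4 in line 3205. Pigp had 304 and 211, then 306 and 267, then 58.9 and 28.7. Both genes were low in both line 3205 libraries. Neither labels nor headers state the strand setting of the counting, so reads in the overlap cannot be assigned to one of the genes. The nearest gene past Ttc3, Dscr3, differed by 0.36 ± 0.14 at 60 min (limma adjusted p = 0.13), and the nearest past Pigp, Hlcs, by -0.63 ± 0.19 (limma adjusted p = 0.053).

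The other falling genes work in the cytoskeleton, in nucleotide and RNA metabolism or in protein turnover, or have no role given here. Diap2, a formin that nucleates actin filaments, had 2289 and 2009 normalized reads in RAW264.7 and 152 and 144 in line 3205 at 60 min, with a standard error of 0.13 around a log2 difference of -3.85. Kif13a, a kinesin motor, fell by a log2 difference of -6.04 ± 0.25. Nudt16l1, which binds the DNA repair protein 53BP1, had 696 and 789 normalized reads in RAW264.7 and 26.5 and 28.7 in line 3205. Macrod2, which removes ADP-ribose from proteins, had 159 and 153 in RAW264.7, with 159 and 172 in line 264, but none in line 3205 at 60 min. Gm17296, which RefSeq names Tarbp1, an RNA methyltransferase gene, differed by -6.81 ± 0.29, and Coa6, which overlaps it, by 0.06 ± 0.18. Fsd1l (-8.39 ± 0.64), Ttc38 (-6.74 ± 0.50), Ctdspl (-6.59 ± 0.46) and 8430419L09Rik (-6.19 ± 0.30), the last called Fam234b in RefSeq, were also lower at 60 min. Chd3os, listed as a synonym of Rnf227, and March9, a membrane-bound ubiquitin ligase, differed by -3.49 ± 0.29 and -2.71 ± 0.50. Without 1 library the adjusted p of March9 at 120 min rose to as much as 0.16, and that of Fut11 to 0.055.

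Among the rising genes, Ptgs2, which encodes the inducible cyclooxygenase-2 that starts prostaglandin synthesis, had the most reads. It had 886 and 749 normalized reads in RAW264.7 at 0 min, then 759.9 and 1159 in line 264, against 5441 and 5430 in line 3205. After 60 min these were 11548 and 9798, 10669 and 7964, and 136110 and 59569. After 120 min they were 52445 and 29976, 33388 and 14773, and 175621 and 100507. Line 3205 was above both other lines at each time without overlap. The log2 difference between line 3205 and RAW264.7 was 3.08 ± 0.34 at 60 min (limma adjusted p = 2.6e-04) and 1.74 ± 0.41 at 120 min (limma adjusted p = 0.02). The 120 min adjusted p was 0.14 without RAW264.7 replicate 2 and 0.12 without line 3205 replicate 1. The neighbouring antisense gene Ptgs2os, 157 bases from Ptgs2, was higher in line 3205 by 5.18 ± 0.53 at 60 min. The strand setting of the counting is not stated, so the 2 genes' reads may not be separate.

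The rising immune receptors and signalling genes were Cd28, Mertk, Clec4a1, Ifnlr1, Sh2d1b2, Ccl6 and Gpr160. Cd28, the costimulatory receptor known from T cells, had 171 and 581 normalized reads in RAW264.7 at 60 min, then 592 and 458 in line 264, against 5163 and 6563 in line 3205. At 120 min it had 37.3 and 133, 321 and 237, and 2001 and 3275, and line 264 was also called above RAW264.7 (1.95 ± 0.56, limma adjusted p = 0.048). Mertk, a receptor tyrosine kinase for the uptake of dying cells, had 5.94 and 5.28 in RAW264.7 and 109.8 and 82.3 in line 3205 at 60 min, and 2.66 and 1.26 against 16.8 and 37.5 at 120 min. Clec4a1, a C-type lectin of the DCIR group, had 35.6 and 39.6 in RAW264.7, 36.8 and 14.7 in line 264, against 813 and 621 in line 3205 at 60 min. Its neighbour Clec4a3 was higher by 1.38 ± 0.26 at 60 min. Other Clec4 genes went the other way: Clec4a2 (-2.66 ± 0.34), Clec4d (-2.68 ± 0.42), Clec4n (-2.47 ± 0.55) and Clec4e (-2.20 ± 0.22) were called lower.

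Ifnlr1, the receptor subunit for lambda interferons, had 1.48 and 0 in RAW264.7, none in line 264, but 113 and 23.7 in line 3205 at 60 min. Sh2d1b2, an adaptor of SLAM family receptors, had 1.48 and 0, none, and 154 and 82.9. Ccl6, a CC chemokine, had 44.5 and 68.6, 72.3 and 57.9, and 273 and 359. Gpr160, an orphan receptor, was higher by 4.33 ± 0.42. All 7 were called higher in line 3205 at both times.

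The rising transcription regulators were Prdm1 and Trerf1. Prdm1, which encodes the repressor Blimp-1, had 29.7 and 5.28 normalized reads in RAW264.7 at 60 min, then 0 and 0.864 in line 264, against 81.3 and 250.0 in line 3205. At 120 min it had 85.2 and 40.4, 61.9 and 142, and 313 and 546. The log2 difference between line 3205 and RAW264.7 was 3.37 ± 0.95 at 60 min (limma adjusted p = 0.039), and the adjusted p was up to 0.24 without 1 library. Trerf1, a zinc finger transcription regulator, had 2.97 and 5.28 in RAW264.7 and 119 and 148 in line 3205 at 60 min.

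Clu, Sepp1, Guca2a and Csn3 encode secreted proteins with known roles outside macrophages, and the phospholipase B-like gene Plbd1 is given beside them. Clu, the extracellular chaperone clusterin, had 25.2 and 31.7 normalized reads in RAW264.7, 29.9 and 25.9 in line 264, against 1849 and 1401 in line 3205 at 60 min, a 57.1-fold higher mean. Sepp1, now named Selenop, encodes the selenium transport protein, and it had 31.2 and 76.6, 63.3 and 40.6, and 2657 and 2721. Guca2a, the gut peptide guanylin, had 1 read in all in RAW264.7 at 60 min and 794 in line 3205, a 268-fold difference with a 95% counting interval of 48.0 to 10604. Plbd1 had 0 and 2.64 normalized reads in RAW264.7 and 164 and 261 in line 3205. Csn3, the milk protein kappa-casein, had 0 and 13.2 in RAW264.7, then 4.17 and 48.4 in line 264, against 95.9 and 234 in line 3205, and its call was lost when some single libraries were left out (adjusted p up to 0.2 at 60 min).

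Tph2, Cntnap5c, Dlgap1 and Grin1 are known mainly from neurons. Tph2, the first enzyme of neuronal serotonin synthesis, had 2.97 and 0 normalized reads in RAW264.7, 9.73 and 5.18 in line 264, against 188 and 119.7 in line 3205 at 60 min. Cntnap5c, a contactin-associated protein, had 32.7 and 26.4, 9.73 and 2.59, and 378 and 241. Dlgap1, a scaffold of the postsynaptic density, differed by 3.26 ± 0.98 at 60 min, just over the threshold (limma adjusted p = 0.05 after rounding). It was called there with the replicate block (limma adjusted p = 0.016), and at 120 min. The 120 min call was lost with no filter (limma adjusted p = 0.062), pseudocount 0.5 (limma, 0.054) and edgeR (0.058), and without some single libraries. The authors' deposited table called Dlgap1 at neither time. Grin1, an NMDA receptor subunit, did not pass at either time (0.56 ± 2.16 at 60 min, limma adjusted p = 0.91). It had 17.8 and 13.2 in RAW264.7 and 107 and 4.36 in line 3205, so its groups overlapped.

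Further rising genes were Ksr1, Plscr4, Tns4, Rhoj, Psd4, Cda and Gm9732. Ksr1 scaffolds the Raf, MEK and ERK kinases and differed by 2.87 ± 0.67 at 60 min. Rhoj, a small GTPase, differed by 3.39 ± 0.49, and Psd4, an exchange factor for Arf6, by 4.85 ± 0.57. Tns4, a focal adhesion protein, had the smallest called difference, 2.27 ± 0.44. Cda, cytidine deaminase, differed by 4.26 ± 1.27, and its adjusted p, 0.05 after rounding, was just under the threshold and rose to as much as 0.3 without 1 library. Plscr4, a phospholipid scramblase family gene, differed by 2.68 ± 0.50, and Plod2, its neighbour on one side, by 3.59 ± 0.65. Gm9732 differed by 6.38 ± 0.63, the gene Gm8127 that overlaps it by 5.22 ± 0.52, and its neighbour Gm6526 by 5.12 ± 0.61. Shared reads between these predicted genes were not tested.

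The replicate libraries of line 3205 differed for some rising genes in the same way at each time. Of the 28, 5 differed at least 2-fold between replicates in the same direction at 0, 60 and 120 min (4 higher in replicate 1, 1 in replicate 2), which is 17.9%, against 1.70% of the 10500 genes with a line 3205 mean of at least 100. Grin1 was 29.6, 24.6 and 16.9 times as high in replicate 1 as in replicate 2 at the 3 times. Ifnlr1 was 4.71, 4.77 and 11.9 times as high, Cda 5.86, 4.29 and 3.06 times, and Dlgap1 4.06, 2.92 and 3.83 times. Csn3 went the other way, 2.96, 2.44 and 2.79 times as high in replicate 2. Of the 21 falling genes, 0 showed such a difference in the RAW264.7 libraries and 2 (9.52%) in those of line 264. The share of all genes was taken for line 3205 only, so these counts have no background. Fsd1l was 2.24, 2.20 and 2.48 times as high in line 264 replicate 1 as in replicate 2, and Fosl1 4.27, 3.84 and 4.21 times as high in replicate 2. These genes were chosen for high values in the same 0 min libraries, and no test was made of this difference.

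Line 264 was compared with RAW264.7 at the same times. At 60 min, 0 rising genes were higher and 3 were lower in line 264, namely Prdm1 (-3.35 ± 0.95), Cntnap5c (-2.29 ± 0.53) and Trerf1 (-1.94 ± 0.47), with limma adjusted p-values of 0.04, 0.017 and 0.021. Without 1 library these rose to as much as 0.26, 0.12 and 0.15, and Trerf1 had 0.1 by edgeR and 0.16 by DESeq2. Trerf1 had only 1 read in line 264 against 4 in RAW264.7, and the 95% counting interval of its fold, 0.976 to 486, includes 1. Prdm1 had 1 read against 22, with an interval of 8.77 to 2240. Over all genes, 8.46% were called higher and 6.80% lower. Of the falling genes, 1 was higher, Cbx2 (1.41 ± 0.36, limma adjusted p = 0.025, and up to 0.18 without 1 library), and 0 were lower by limma, with 2 at an unadjusted p below 0.05 in either direction. At 120 min, 1 rising gene, Cd28, was called higher (limma adjusted p up to 0.32 without 1 library, and 0.081 by edgeR) and 0 falling genes were called by limma (1 at an unadjusted p below 0.05), where 7.33% and 6.13% of all genes were called. With the replicate number as a block, 6 rising and 2 falling genes were called in either direction at 60 min, and 5 and 1 at 120 min. The share of all genes called with the block is not given here, so nothing is read from these counts. The authors' deposited table called 0 of the 49 genes in line 264 at either time, and its share of all genes is not given here.

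Line 3205 was also compared directly with line 264. At 60 min, 20 of 21 falling genes were lower and 25 of 28 rising genes higher by limma, where 4.70% and 5.45% of all genes were called. At 120 min, 20 and 25 were called again, where 4.22% and 4.78% of all genes were. Grin1, Csn3 and Cda at 60 min, Grin1, Csn3 and Prdm1 at 120 min, and Fosl1 at both times did not pass. These comparisons share libraries with those against RAW264.7.

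The response of these genes to LPS was counted within each line, with the caution that the 0 min libraries also chose the genes. In RAW264.7, 4 of the 49 were called at 60 min and 9 at 120 min, where 2.98% and 10.6% of all genes were. Line 264 had 1 and 4, where 1.19% and 5.43% of all genes were called, and line 3205 had 2 and 4, where 1.23% and 5.03% were. With the replicate block the 120 min counts were 15, 9 and 9. The shares of all genes above are from the fit without the block and are no background for these counts. Ptgs2 rose in every line at both times: by 3.70 ± 0.34, 3.29 ± 0.34 and 4.05 ± 0.34 at 60 min in RAW264.7, line 264 and line 3205. Fosl1 rose in RAW264.7 at both times (3.47 ± 0.72 and 2.89 ± 0.74), and in line 264 and line 3205 at 120 min (3.14 ± 0.74 and 4.17 ± 0.74). Prdm1 rose at 120 min in RAW264.7 (5.07 ± 0.75) and line 264 (4.62 ± 0.75), and its line 3205 libraries were 182 and 557 normalized reads at 0 min and 313 and 546 at 120 min.

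Cbx2 fell in RAW264.7 at 60 min (-2.47 ± 0.36) and in RAW264.7 (-2.67 ± 0.44) and line 264 (-2.10 ± 0.44) at 120 min. Cd28 fell in RAW264.7 at 120 min (-2.51 ± 0.56), Chd3os by -1.67 ± 0.38 and Amigo1 by -1.38 ± 0.27. Cntnap5c rose in RAW264.7 by 2.47 ± 0.53 at 60 min and 2.81 ± 0.63 at 120 min, and Enpp4 by 1.78 ± 0.47 at 120 min. In line 3205 Kif13a fell by -1.46 ± 0.25 at 60 min and -1.45 ± 0.32 at 120 min, and Gpr160 by -2.07 ± 0.49 at 120 min. Kif13a had few reads in line 3205: 24 over the group at 0 min, 11 at 60 min and 11 at 120 min. With pseudocount 5 it was called at neither time (limma adjusted p = 0.12 and 0.11). Of the LPS responses named, those of Ptgs2 in each line, and of Prdm1 and Cbx2 in RAW264.7 at 120 min, passed the limma test without any 1 library, and each other one missed it without at least 1. Fosl1 in RAW264.7 missed it without any 1 of 4 libraries (limma adjusted p 0.12 to 0.24 at 60 min and 0.12 to 0.19 at 120 min). So did Cntnap5c (0.17 to 0.21 and 0.078 to 0.12), Chd3os (0.097 to 0.14), Gpr160 (0.074 to 0.26) and, in line 264, Cbx2 (0.079 to 0.17). The limma adjusted p reached 0.066 for Cbx2 in RAW264.7 at 60 min and for Prdm1 in line 264, 0.16 for Cd28, 0.1 for Amigo1 and 0.28 for Enpp4. It reached 0.25 for Fosl1 in line 264 and 0.092 in line 3205, and for Kif13a 0.15 at 60 min and 0.18 at 120 min. The change from 60 to 120 min contrasts only libraries outside the rule. Its fit of 18 libraries drew its spread from the 0 min ones too. By limma this change differed between line 3205 and RAW264.7 for 0 of the 49 genes (5 at an unadjusted p below 0.05). Between line 264 and RAW264.7 it also differed for 0 (2 at an unadjusted p below 0.05). Of 17367 genes, 0.0921% and 0.0345% were called. The edgeR and DESeq2 tests also called 0.

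**Figure D3:**
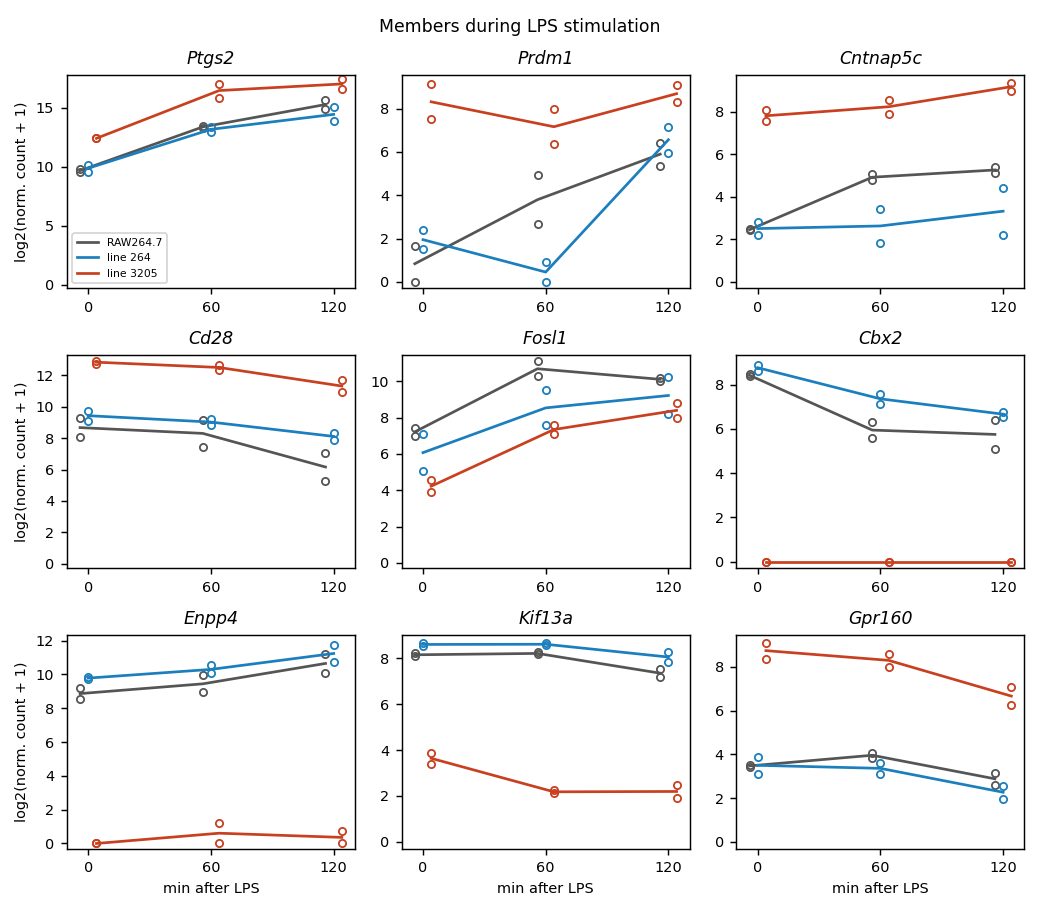
Log2(normalized reads + 1) of 9 genes called in at least 1 LPS response, against time after LPS, with a circle per library and a line through the mean of each group of 2 (grey RAW264.7, blue line 264, red line 3205). Ptgs2 climbs in all 3 lines from a higher start in line 3205, and Cbx2 lies at 0 in every line 3205 library.

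The promoter letters were not used by the rule. RefSeq windows from 250 bases before to 50 after a start were found for 18 falling genes (25 windows) and 21 rising genes (27 windows). The falling windows held a median of 33 CG, and 96.0% held at least 10. Genes with a RAW264.7 0 min mean of at least 100 had a median of 21 over 10085 windows, and 82.8% held at least 10. The rising windows held a median of 9, and 40.7% held at least 10, against 21 and 81.7% for genes with a line 3205 0 min mean of at least 100, and 7 and 43.5% for all 32851 windows. The GC box letters GGGCGG, on either strand, were in 92.0% of falling, 40.7% of rising, 64.3% of expressed RAW264.7 and 35.7% of all windows, and are themselves counted in part as CG. The ETS core letters GGAAGT were in 48.1% of rising and 24.0% of falling windows, against 30.4% of expressed RAW264.7 windows. TATAAA was in 7.41% of rising and 0 of 25 falling windows, against 6.49%. Several windows belong to 1 gene and overlap, as the 4 of Pigp do, and no test was made of these shares.

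**Figure D4:**
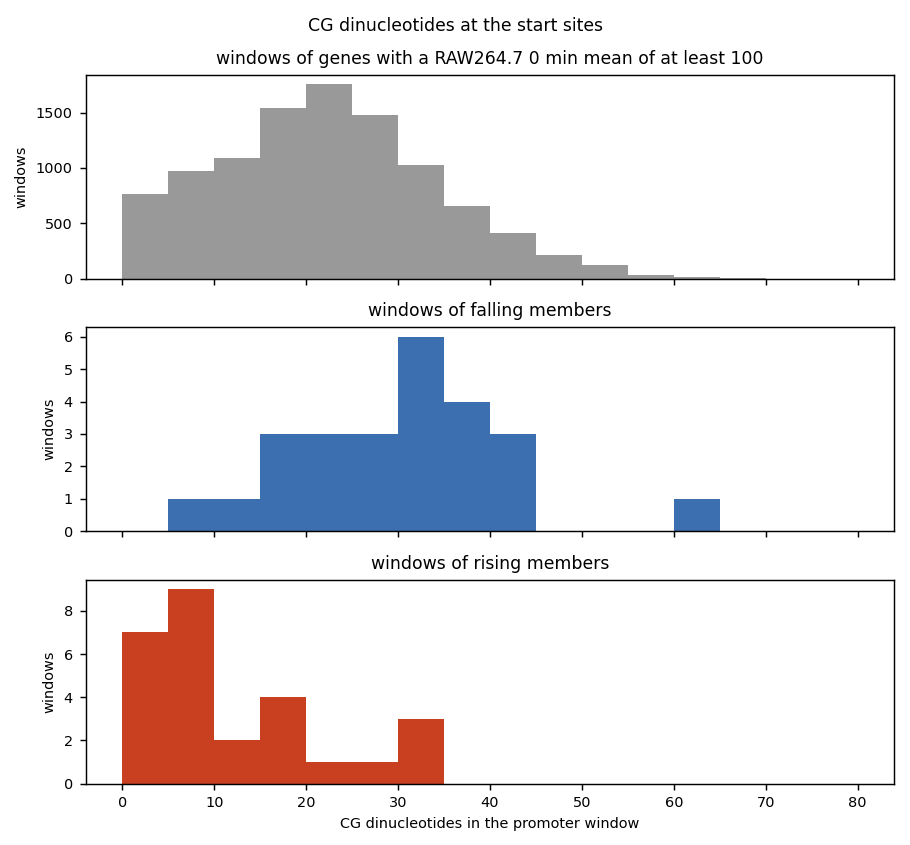
Histograms of CG dinucleotides per promoter window (x axis) and the number of windows (y axis) for genes with a RAW264.7 0 min mean of at least 100 (top), falling genes (middle) and rising genes (bottom). Falling windows centre on a median of 33 and rising windows on 9.

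All 49 genes had a RefSeq position. They lay on 18 chromosomes, with 7 on chromosome 11, which held 8.57% of tested genes. Of 40 neighbours of falling genes at a mean of at least 50, 5 were higher (12.5%) and 5 lower (12.5%) in line 3205 than in RAW264.7 at 60 min. Of 55 neighbours of rising genes, 8 were higher (14.5%) and 7 lower (12.7%). Over 11259 genes of that level, 10.6% were higher and 8.36% lower, and the median log2 differences were -0.07, -0.05 and -0.01. Only neighbours that went the way of their member are named next, while 5 of falling and 7 of rising genes went the other way. The 5 neighbours of falling genes that were lower were Hebp1 beside 8430419L09Rik (-2.89 ± 0.60), Amotl1 beside Fut4 (-1.02 ± 0.22), Sec24c beside Fut11 (-0.52 ± 0.11), Mgrn1 beside Nudt16l1 (-0.50 ± 0.12) and Cd2ap beside Enpp4 (-0.32 ± 0.09). The 8 neighbours of rising genes that were higher were Ptgs2os, Plod2, Clec4a3 and Gm6526, given above, Fam213a beside Gm9732 (1.92 ± 0.44), Plscr1 beside Plscr4 (0.97 ± 0.15), Ptgs2os2 beside Ptgs2 (0.89 ± 0.25) and Fbxo4 beside Sepp1 (0.89 ± 0.18). Flrt3, which overlaps the falling gene Macrod2 and had a mean of 10.9, below that level, was also lower (-3.36 ± 0.82, limma adjusted p = 0.021).

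In a table of 193 LPS genes of primary bone marrow macrophages with 1 ChIP library per target and time, 2 of the 49 genes appeared. For Ptgs2 the signal of H3.3 phosphorylated at serine 31 was 1.48 at 0 min and 3.23 at 60 min, a 2.18-fold ratio, and for Prdm1 1.52 and 4.0, a 2.64-fold ratio. The median ratio of the 193 genes was 3.83. In the authors' deposited table the RNA of these genes rose in primary macrophages by 4.86 and 3.08 on the log2 scale. There is no replicate check on the ChIP values.

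Of 22 gene lists, 2 held a member, Mertk among macrophage identity genes and Clec4a1 among myeloid lectins and paired receptors. Of all genes tested, 8.95% were higher and 6.46% lower in line 3205 than in RAW264.7 at 60 min, and 7.94% and 5.99% at 120 min. Of the other 18 tested macrophage identity genes, 3 were higher and 6 lower at 60 min, and 1 and 5 at 120 min, among them Cd14 (-1.47 ± 0.21 at 60 min), the LPS coreceptor. Of the other lectins and paired receptors, 7 of 27 were higher and 10 lower at 60 min, and 6 of 29 and 9 at 120 min. Among them were Trem1 (5.37 ± 0.32 at 60 min), which amplifies inflammatory signals, and Clec4e (-2.20 ± 0.22), a receptor for mycobacterial glycolipids. Means at 60 min in RAW264.7, line 264 and line 3205 were 8.58, 919.8 and 376 for Trem1. They were 33660, 15301 and 7304 for Clec4e, and 57452, 29703 and 20707 for Cd14. The means of these genes thus moved the same way in line 264 and are not particular to line 3205.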

How the data were processed

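RNA of 18 cell line libraries was analysed. Per the submitters' processing notes, the authors named Trim Galore 0.5.0, STAR 2.4.2, Subread 1.4.6 with featureCounts, DESeq2 under R 3.4.0 and build mm10. The deposited signal is a count of reads per gene divided by a size factor, as rescaling by 1 factor per library gave whole reads, to within 0.1, for 100.0% of values. Log2 fold changes and adjusted p-values of the authors' own comparisons are deposited in the same tables, per the file headers. The deposited ChIP signal is in the authors' scaling.

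Log2(value + 1) was tested with limma 3.58.1 (trend, two-sided) for genes with a mean of at least 1, using the 12 libraries tabulated for each time, with Benjamini-Hochberg adjustment over all genes tested and calls below 0.05. Fold changes on this scale understate low genes. Alternatives were no filter, pseudocounts of 0.5 and 5, a replicate block, TMM scaling, edgeR 4.0.16 and DESeq2 1.42.0 on recovered reads, and leaving out each library. The fit of 18 libraries for the change from 60 to 120 min, edgeR with the replicate block, the promoter backgrounds and the replicate ratios were added after the data were seen. Same-numbered libraries deviated together in all 15 group pairs of each table (r from 0.16 to 0.56, and 0.22 to 0.56). The fit without the block is the one reported, and values with the block are given where they change a call or a count by over 1.5 times. No 2 libraries of a group agreed within sampling noise. Scripts were tested on simulated data.

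Members and lists were chosen with earlier results of these data known. Named genes are the members with the largest differences, those at each threshold, those in a list, those called in line 264, those not called in line 3205, those of smallest p for LPS, and those in the primary macrophage table; other members are named for completeness, and 1 rising member is counted but not reported by name here. RefSeq tables gave names, positions and promoters. Samples without values were not analysed here.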

Additional observations from a re-analysis of the deposited data

How the results depend on the processing

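Across the alternatives run, 0 of the member differences between line 3205 and RAW264.7 reversed. Of the called genes, 1 of 21 falling and 7 of 26 rising lost the call under at least 1 alternative at 60 min, and 2 of 20 and 10 of 27 at 120 min, each in at least 1 fit that left out a library. Leaving out each library in turn gave 21 to 24 rising and 18 to 20 falling calls between line 3205 and line 264 at 60 min, and 18 to 22 and 17 to 19 at 120 min. For line 264 against RAW264.7 at 60 min, rising calls (3 in all) numbered 1 with pseudocount 5, 6 with the replicate block and 0 to 2 without 1 library. Falling calls (1) numbered 2 with the block, 2 with DESeq2, 4 with edgeR and the block, and 0 to 1 without 1 library. At 120 min, rising calls (1) numbered 0 with no filter, 2 with pseudocount 0.5, 0 with pseudocount 5, 5 with the block, 2 with TMM, 0 with edgeR, 2 with DESeq2, 4 with edgeR and the block, and 0 to 1 without 1 library. Falling calls (0) numbered 1 with the block, 3 with edgeR and the block, and 0 to 1 without 1 library. For LPS, RAW264.7 at 60 min (4) had 1 to 2 without 1 library. Line 264 at 60 min (1) had 2 with the block, 3 with DESeq2 and 3 with edgeR and the block. Line 3205 at 60 min (2) had 1 with pseudocount 5 and 1 to 2 without 1 library. At 120 min RAW264.7 (9) had 15 with the block, 15 with DESeq2, 19 with edgeR and the block, and 3 to 5 without 1 library. Line 264 (4) had 9, 7, 10 and 1 to 3, and line 3205 (4) had 9, 8, 12 and 1 to 3, in the same order. Shares of all genes under these alternatives are not given here, so the counts show only how member calls moved. The cause of these changes was not tested. The low depth of members near 0 limits their folds to counting intervals or lower bounds, which cover counting error only.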

Other observations

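Homeobox genes, of which 0 are members, were counted beside the members. Of 22 tested, 10 were higher and 0 lower in line 3205 than in RAW264.7 at 60 min, and 8 and 0 at 120 min, against 8.95% and 6.46% of all genes at 60 min. Hoxb9 had no read in RAW264.7 or line 264 at 60 min and a mean of 26.5 normalized reads in line 3205, and Hoxa7 had means of 53.5, 1.74 and 309. Of 27 lipid handling genes, 9 were higher and 3 lower in line 3205 at 60 min, with a mean for the fatty acid receptor Cd36 of 18528 normalized reads in RAW264.7, against 1.13 and 10.9 in lines 264 and 3205.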
